A study of Mus musculus with 3 samples.

Results

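Muller glia and gliosis genes were followed across 3 microarrays of mouse retina as a list of 35 symbols. Of these, 16 are listed as genes of resting, or homeostatic, Muller glia and 19 as genes known to be induced in retinal injury. Members were read from probe sets annotated to exactly 1 of the listed symbols, and where a gene had several, the one with the highest mean level was used. This gave values for 32 members, 14 homeostatic and 18 injury-induced, among 22180 genes with a value. Cyr61 was read under its current symbol, Ccn1. Car14 shares its probe set with Aph1a, Spp1 had no probe set, alone or shared, and the symbol Kdr2 could not be matched to a RefSeq gene. These 3 members were therefore not analysed here.

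RNA on each array came from a pool of 5 to 6 retinae of C57 mice after an injection into the vitreous of the eye, and age is not given in the labels. The first array, AP control, was taken 2 hr after injection of AP, an agent the labels name as the control without spelling it out. The second, cavtratin, was taken 2 hr after injection of cavtratin, a cell-permeable peptide with the scaffolding domain of caveolin-1. The third was labelled Cav1-shRNA, a short hairpin RNA named for the caveolin-1 transcript, and was taken 2 days after injection. No array of uninjected retina or of a control hairpin was analysed here, so all 3 retinae pools share an intravitreal injection. There was 1 array per group, so no test was run, no spread between pools is known, and each difference given here is one between 2 arrays rather than between conditions. Cav1 itself had a level of 8.26 on the log2 scale in all 3 arrays, which does not show a knockdown in the array labelled Cav1-shRNA.

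Muller glia span the retina from its inner surface to the photoreceptor layer. They recycle glutamate and retinoids, move water, ions and acid, and feed neurons. After damage they enter gliosis, in which intermediate filaments, acute-phase proteins, metallothioneins and growth factors are induced, in part through cytokines that signal by gp130 and STAT3, while genes of resting function can be lowered. Many gliosis genes are also made by retinal astrocytes, endothelium and myeloid cells, and in a bulk sample fewer cells of a type and less RNA per cell cannot be told apart.

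Values are the deposited log2 levels, and a difference is one array's log2 level minus another's. An expression floor of 6.50 was set at the median level of all probe sets with 1 symbol. All 32 members reached it in at least 1 array and 31 in all 3. The exception was Lgals3, which lay below it in AP control and so entered only through the arrays where it was higher. Many deposited values are exactly equal between arrays. The value was identical throughout for 5 of 32 members, against 43.8% of genes with a mean at or above the floor. Between some pair of arrays 3 members were at least 1.5-fold apart and 1 at least 2-fold, against 2.34% and 1.31% of those genes. The 5 members with identical values were Slc1a3, Sox9, Lhx2, Cntfr and Id1, and an exact tie does not show that a level did not differ. As a yardstick within these arrays, the differences that 2 probe sets give for the same gene were set against each other in 271 genes. Their SD per probe set was 0.12 for cavtratin minus AP control, 0.089 for Cav1-shRNA minus AP control and 0.11 for Cav1-shRNA minus cavtratin. It holds no spread between animals or pools, and is called the probe set SD below.

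In cavtratin against AP control, both at 2 hr, 1 of 32 members was at least 2-fold higher, Lgals3, and 0 were at least 2-fold lower. Over all 11477 genes at or above the floor the same shares were 1.36% and 0.0958%. At 1.5-fold, 2 members were higher, Lgals3 and Cebpb, and 1 was lower, Steap4, against 2.19% and 0.235% of genes. All 3 are injury-induced members, and 0 of the 14 homeostatic members were 1.5-fold apart. Beyond the probe set SD, 6 members were higher and 6 lower, where 7.55% and 4.9% of genes were. Injury-induced members made up 5 of the 6 higher (Vim, Gfap, Nes, Cebpb and Lgals3) and 4 of the 6 lower (Steap4, Mt1, Mt2 and Id3). The homeostatic group gave Sox2 as higher and Aqp4 and Apoe as lower. The median difference was 0 in both groups and 0 over all genes, with 3 homeostatic members above 0, 6 below and 5 equal, and 7, 6 and 5 injury-induced ones. Over all genes at or above the floor, 19.6% lay above 0, 25.9% below and 54.5% were equal.

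In the array labelled Cav1-shRNA against AP control, which sets 2 days against 2 hr so that agent and time cannot be told apart, 0 of 32 members were 2-fold apart in either direction. Over 11433 genes the shares were 0.341% for higher and 0.122% for lower. At 1.5-fold, Lgals3 was higher and Steap4 lower, against 0.901% and 0.367% of genes. Beyond the probe set SD, 9 members were higher and 6 lower, against 9.19% and 6.54% of genes. The 4 homeostatic members among the higher were Rlbp1, Apoe, Dkk3 and Sox2, and 0 homeostatic members were among the lower. The 5 injury-induced members that were higher were Gfap, Cebpb, Fgf2, Serpina3n and Lgals3, and the 6 lower were Cebpd, Steap4, A2m, Mt2, Cyr61 and Id3. Of the 14 homeostatic members 8 lay above 0, 1 below and 5 were equal, with a median of 0.025. Of the 18 injury-induced members 7 lay above 0 and 8 below, with a median of 0. Over genes at or above the floor, 25.2% lay above 0, 21.9% below and 53% were equal. Centring each array on its median adds 0.058 to every gene of this comparison, and the homeostatic median then was 0.083 beside 0.058 for all genes. It also placed Cebpd, A2m and Id3 within the probe set SD, at −0.058, −0.077 and −0.069. Aqp4, Hes5 and Vim then lay beyond it above 0, at 0.128, 0.132 and 0.145. Which members lie beyond the probe set SD thus depends on the scaling. Both comparisons use the AP control array, so a value particular to that array enters both.

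The array labelled Cav1-shRNA was set against cavtratin as well, without the AP control array. Here 0 of 32 members were 2-fold or 1.5-fold apart. Over 11472 genes the shares were 0.0349% higher and 0.785% lower at 2-fold, and at 1.5-fold the shares were 0.0959% and 1.53%. The homeostatic members lay above 0 in 9 of 14, below in 1 and equal in 4, with a median of 0.056 beside 0 for all genes, of which 25.9% lay above 0, 19.4% below and 54.7% were equal. Injury-induced members lay above 0 in 6 of 18 and below in 10, with a median of −0.014. That small negative median turned to 0.037 after centring, which moved the median of all genes to 0.051, and to 0.012 after quantile normalization. Beyond the probe set SD, 3 homeostatic members were higher, Aqp4, Apoe and Dkk3, and 0 were lower. Among injury-induced members 4 were higher (Fgf2, Serpina3n, Mt2 and Id3) and 8 lower (Vim, Nes, Cebpb, Cebpd, Steap4, A2m, Lgals3 and Cyr61). The shares of all genes beyond it were 5% higher and 6.82% lower.

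**Figure D1:**
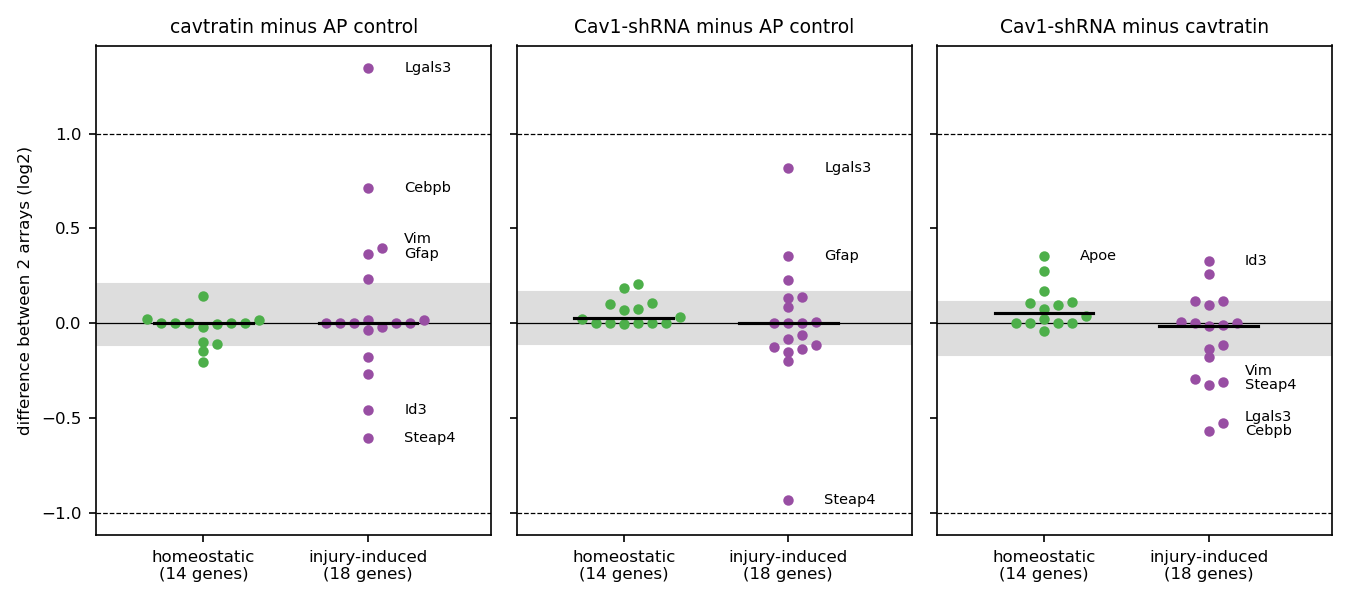
Each point is the log2 difference between 2 arrays for 1 of 14 homeostatic (green) or 18 injury-induced (purple) members, in 3 comparisons. Black bars are group medians, the grey band runs from the 5th to the 95th percentile of all genes at or above the floor, and dashed lines mark 2-fold. Members at least 0.3 apart are named, and Lgals3 in cavtratin minus AP control, at 1.35, is the point past 2-fold.

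Among homeostatic members, the measured enzymes, carriers and binding proteins of resting function lay within 0.11 across arrays. Glul encodes glutamine synthetase, which turns glutamate into glutamine. Its level was 11.54 in AP control, 11.57 in the array labelled Cav1-shRNA and 11.54 in cavtratin, and its second probe set had 7.13, 7.20 and 7.13. Rlbp1, the retinaldehyde-binding protein CRALBP, had 10.89 in AP control and cavtratin, with 10.99 in the array labelled Cav1-shRNA. For each of these probe sets the array labelled Cav1-shRNA was the highest. Slc1a3, the glutamate transporter GLAST, was at 9.43 in all 3. Dbi, the acyl-CoA-binding protein, had a level of 7.43 in AP control and 7.45 in each of the others. Car2, a cytosolic carbonic anhydrase, was at 11.60, 11.60 and 11.50 in AP control, the array labelled Cav1-shRNA and cavtratin.

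Aqp4, the water channel of Muller cell endfeet, differed more within this group. It was at 9.74 in AP control, 9.81 in the array labelled Cav1-shRNA and 9.54 in cavtratin. The cavtratin array was the low one, by 0.21 against AP control and by 0.28 against Cav1-shRNA, and 0.75% of genes lay at least as far above cavtratin in that last comparison. Retinal astrocytes express Aqp4 too.

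Of the secreted proteins of resting glia, Apoe, the lipid carrier apolipoprotein E, had the largest difference of any homeostatic member. It was at 7.20 in AP control, 7.41 in the array labelled Cav1-shRNA and 7.05 in cavtratin. Cav1-shRNA was thus 0.21 above AP control and 0.35 above cavtratin, and 0.436% of genes lay at least as far above cavtratin. Macrophages make Apoe as well, and their part in its values was not tested. Dkk3, a secreted dickkopf-family glycoprotein, was at 10.79 in AP control, 10.98 in the array labelled Cav1-shRNA and 10.81 in cavtratin, so Cav1-shRNA was high by 0.18 and 0.17. Clu, the extracellular chaperone clusterin, had 10.40 in AP control and Cav1-shRNA and 10.29 in cavtratin.

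The transcription factors that mark Muller glia and retinal progenitors lay within 0.14 across arrays. Sox9 was at 8.48 and Lhx2 at 8.06 in all 3 arrays. Sox2 was at 7.97 in AP control, 8.07 in the array labelled Cav1-shRNA and 8.11 in cavtratin, and AP control was the low array by 0.10 and 0.14. The Notch effectors Hes1 and Hes5 lay within 0.074 across arrays. Hes1 was at 7.13, 7.13 and 7.10 in AP control, the array labelled Cav1-shRNA and cavtratin, and Hes5 at 6.99, 7.07 and 6.99.

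**Figure D2:**
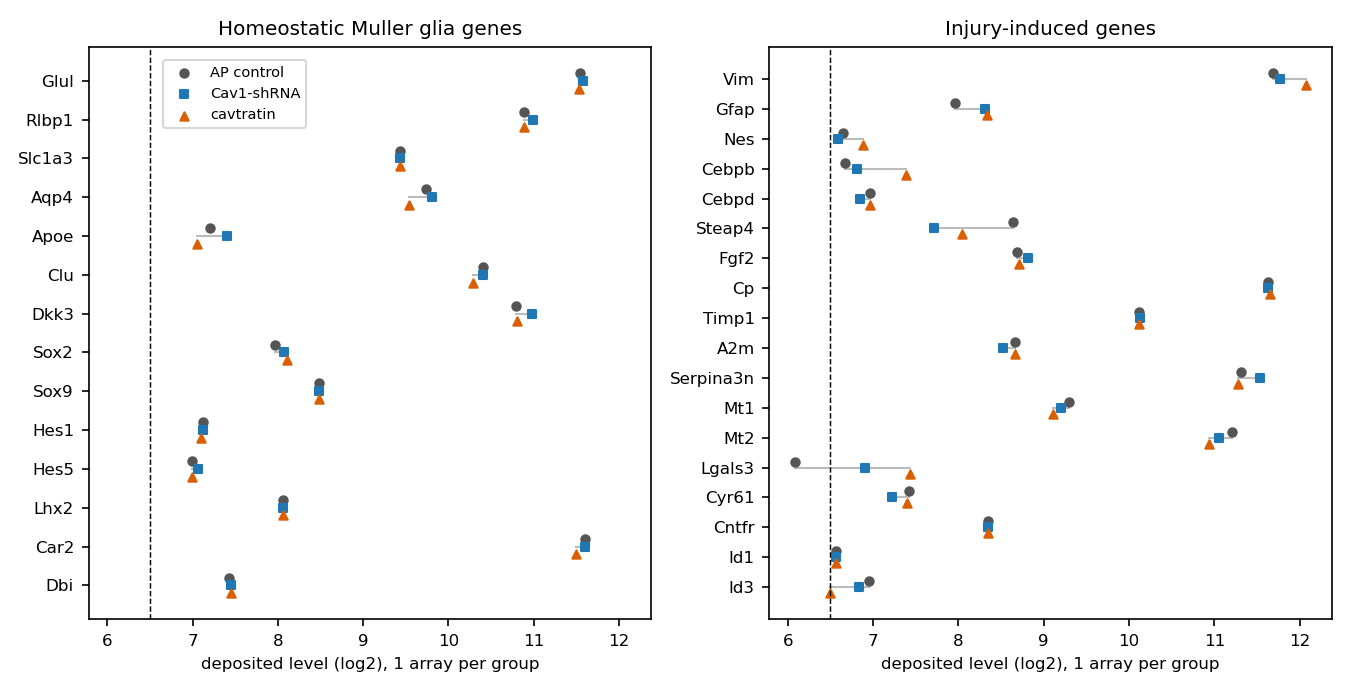
Deposited log2 level of the 14 homeostatic (left) and 18 injury-induced (right) members with a value, with 1 point per array and a grey line from the lowest to the highest array. The dashed line is the floor of 6.50. Lgals3, Steap4 and Cebpb have the widest gaps, at 1.35, 0.93 and 0.71, and only Lgals3 in AP control lies below the floor.

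Intermediate filaments are the classic sign of gliosis, and all 3 filament members were higher in cavtratin than in AP control, also under the scaling alternatives. Vim, vimentin, which resting Muller glia make too, was at 11.68 in AP control, 11.77 in the array labelled Cav1-shRNA and 12.08 in cavtratin. Cavtratin was the high array, by 0.40 against AP control and 0.31 against Cav1-shRNA. The second Vim probe set had 8.78, 8.98 and 9.14 in that order, with a like difference of 0.36 from AP control to cavtratin. Nes, nestin, a filament of progenitors and reactive glia, was at 6.65, 6.59 and 6.88 in the same arrays, again with cavtratin highest, by 0.23 and 0.30.

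Gfap, the filament protein that Muller glia make little of at rest and much of in gliosis, was at 7.96 in AP control, 8.32 in the array labelled Cav1-shRNA and 8.33 in cavtratin. AP control was the low array, by 0.36 and 0.37, and the other arrays lay 0.012 apart, a gap whose sign changed under another scaling. Of all genes, 3.19% lay at least as far above AP control in cavtratin and 1.83% in Cav1-shRNA. Retinal astrocytes hold Gfap at rest. Of 9 measured astrocyte markers 5 were equal in all 3 arrays, among them Pax2, below the floor at 5.04, and 5 reached the floor in each array. Their summed linear level was 2189 in AP control, 2084 in the array labelled Cav1-shRNA and 2299.7 in cavtratin. Slc1a2, at 9.61 in all 3 arrays, and Slc14a1 weigh most in this sum. Pax2, S100b, Pdgfra and Fgfr3 lay below the floor in all 3. The marker Aldh1l1, like Gfap, was lowest in AP control, at 7.45, with 7.71 in the array labelled Cav1-shRNA and 7.78 in cavtratin. The astrocyte and glial connexin gene Gja1 was at 7.48, 7.39 and 8.11 in that order, 0.62 higher in cavtratin than in AP control. Agt was at 7.69, 7.93 and 7.55, and Slc14a1 at 9.34, 8.91 and 9.32. AP control was the lowest array for none of Gja1, Agt and Slc14a1. Lens cells, endothelium and myeloid cells hold vimentin. The summed linear level of 14 lens markers was 2019.9 in AP control, 1859 in the array labelled Cav1-shRNA and 9084 in cavtratin, with 7, 7 and 10 of them at or above the floor and none at 0, the lowest being at 5.18. The crystallins Cryaa, Cryba1 and Crygs weigh most in the cavtratin sum, at 12.00, 10.95 and 10.52. Against AP control 11 of the markers were higher in cavtratin, Mip was lower, at 6.74 against 6.80, and Lim2 and Gja3 were equal. The part of astrocytes, lens or myeloid cells in the filament values was not tested.

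Transcriptional regulators of injury went different ways. Cebpb, a leucine zipper factor induced by cytokines, was at 6.67 in AP control, 6.81 in the array labelled Cav1-shRNA and 7.38 in cavtratin. Cavtratin stood apart from both, 1.64-fold above AP control and 1.49-fold above Cav1-shRNA, while the other arrays differed by 0.14. Its relative Cebpd, a STAT3 target in glia, had 6.96 in AP control and cavtratin, with 6.84 in the array labelled Cav1-shRNA. Id3, an inhibitor of helix-loop-helix factors and a target of BMP signalling, was at 6.96 in AP control, 6.83 in the array labelled Cav1-shRNA and 6.50 in cavtratin. Cavtratin was low by 0.46 and 0.33, at the floor itself, and 0.349% of genes lay at least as far below AP control. Id1, of the same family, was at 6.57 in all 3 arrays.

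Steap4, a membrane metalloreductase that inflammatory cytokines induce and a common marker of reactive glia, had the largest negative differences of any member against AP control. It was at 8.65 in AP control, 7.71 in the array labelled Cav1-shRNA and 8.04 in cavtratin. AP control was the high array, 1.91-fold above Cav1-shRNA and 1.52-fold above cavtratin. Only 0.157% and 0.227% of genes lay at least as far below AP control in those comparisons, and both rest on the same AP control value. Cav1-shRNA lay 0.33 below cavtratin.

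The metallothioneins Mt1 and Mt2, small zinc-binding proteins made by stressed glia, lie next to each other on chromosome 8 and had the same order of arrays. Mt1 was at 9.29 in AP control, 9.21 in the array labelled Cav1-shRNA and 9.11 in cavtratin. Mt2 was at 11.21, 11.06 and 10.94 in the same arrays. AP control was highest and cavtratin lowest for both, by 0.18 for Mt1 and 0.27 for Mt2, and this order was kept under each scaling. The paralogs can share labelled cDNA on an array, so their values may not be independent. Of 12 other measured genes of metal handling 1 had this order too, Tfrc, the transferrin receptor, 0.14 lower in cavtratin than in AP control. Hp, haptoglobin, was at least 2-fold higher in cavtratin than in AP control, at 8.42 against 6.32, and in Cav1-shRNA, at 7.40, with AP control below the floor. Fth1, the ferritin heavy chain, was 0.82 higher in cavtratin, and 0 of the 12 were 1.5-fold lower than AP control in either array. Of the 12, 8 reached the floor in each comparison, and 0.235% and 0.367% of all genes were 1.5-fold lower in cavtratin and Cav1-shRNA. Mtf1, the zinc-sensing factor of metallothionein genes, was at 8.34 in all 3 arrays.

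The start regions of some of the members with shared or marked differences are shown as RefSeq gives them for GRCm38.p6. They run from 250 bases before to 50 after the annotated start, on the gene's strand. RefSeq promoters were found for 25 of the 35 members, and Aqp4, Clu, Dkk3, Sox9, Hes1, Car2, Kdr2, Cebpd, A2m and Id1 had no entry. In Mt1 and Mt2, chosen because they had the same order of arrays, capitals mark the metal response element, searched as TGCACNC or TGCGCNC on both strands. Mt1 lies at chr8:94178839-94179138 on the plus strand and Mt2 at chr8:94172368-94172667 on the plus strand.
Mt1: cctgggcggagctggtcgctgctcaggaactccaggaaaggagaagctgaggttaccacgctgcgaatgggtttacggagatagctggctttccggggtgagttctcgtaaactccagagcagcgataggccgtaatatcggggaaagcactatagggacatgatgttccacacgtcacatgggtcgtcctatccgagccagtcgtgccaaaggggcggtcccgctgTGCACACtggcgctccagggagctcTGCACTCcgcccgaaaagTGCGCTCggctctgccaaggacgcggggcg
Mt2: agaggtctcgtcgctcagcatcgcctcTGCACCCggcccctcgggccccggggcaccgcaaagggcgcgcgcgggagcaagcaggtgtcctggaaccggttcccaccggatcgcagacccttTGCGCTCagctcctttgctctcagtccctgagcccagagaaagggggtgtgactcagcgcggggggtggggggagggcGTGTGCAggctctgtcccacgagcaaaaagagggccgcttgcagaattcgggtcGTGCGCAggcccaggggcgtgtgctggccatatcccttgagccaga
Mt1 held 3 matches and Mt2 held 4 in this window. Of 32851 promoters of this length 25.7% held at least 1 match and 1.97% at least 3. Of the 25 members with a promoter 10 had at least 1, including Id3, with values that are given above. Members were counted by gene over 36 promoters, so this count is not like the share per promoter.

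Steap4 and Gfap are shown because AP control stood apart from both other arrays for each of them, in opposite directions. Capitals mark the STAT motif, searched as TTCNNNGAA, and the C/EBP motif, searched as TTGCNNAA, on both strands. Steap4 lies at chr5:7960222-7960521 on the plus strand and Gfap at chr11:102897151-102897450 on the minus strand.
Steap4: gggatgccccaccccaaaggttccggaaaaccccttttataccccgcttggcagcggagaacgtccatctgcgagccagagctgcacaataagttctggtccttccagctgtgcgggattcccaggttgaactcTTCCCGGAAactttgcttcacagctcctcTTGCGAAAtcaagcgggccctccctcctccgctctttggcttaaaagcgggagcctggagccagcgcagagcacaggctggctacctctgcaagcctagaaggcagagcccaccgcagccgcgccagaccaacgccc
Gfap: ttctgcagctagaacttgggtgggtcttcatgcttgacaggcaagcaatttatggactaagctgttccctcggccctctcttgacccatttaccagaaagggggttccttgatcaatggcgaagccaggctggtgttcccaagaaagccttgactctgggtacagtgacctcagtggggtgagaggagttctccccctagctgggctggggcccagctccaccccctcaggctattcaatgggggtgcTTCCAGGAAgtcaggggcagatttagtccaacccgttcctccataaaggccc
Steap4 held 1 STAT match, whose first base lies at −116 from the start site, and 1 C/EBP match at −87. Gfap held 1 STAT match and 0 C/EBP matches. AP control stood apart for Lgals3 too, the member with the largest difference. The promoters of Lgals3 and Cebpb, which are not shown, held 0 STAT and 0 C/EBP matches. The STAT letters were in 8.3% of all promoters and the C/EBP letters in 10.8%. Of the 25 members with a promoter, 3 (Gfap, Slc1a3 and Steap4) and 5 (Cp, Mt2, Sox2, Spp1 and Steap4) held them. These counts are by gene, and some members have several promoters, so they are not like the shares per promoter. The marked matches do not overlap each other, and a match describes the letters and is no evidence of binding.

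Acute-phase proteins and protease inhibitors of gliosis lay within 0.26 across arrays. Serpina3n, a secreted serpin of reactive astrocytes, was at 11.31 in AP control, 11.53 in the array labelled Cav1-shRNA and 11.27 in cavtratin. Cav1-shRNA was the high array by 0.23 and 0.26, and 0.872% of genes lay at least as far above cavtratin. A2m, the protease inhibitor alpha-2-macroglobulin, had 8.66 in AP control and cavtratin and was 0.14 lower, at 8.52, in Cav1-shRNA. Timp1, an inhibitor of metalloproteinases, was at 10.12, 10.13 and 10.12, and Cp, the copper ferroxidase ceruloplasmin, at 11.63, 11.63 and 11.65 in AP control, the array labelled Cav1-shRNA and cavtratin. These 2 genes lay within 0.016 across arrays.

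Growth factors and receptors lay within 0.20 across arrays. Fgf2, which Muller glia and photoreceptors raise after injury, was at 8.69 in AP control, 8.82 in the array labelled Cav1-shRNA and 8.70 in cavtratin, with Cav1-shRNA higher by 0.13 and 0.11. Cyr61, a matricellular protein and YAP target, was at 7.42, 7.22 and 7.40 in the same arrays, with Cav1-shRNA lower by 0.20 and 0.18. Cntfr, the receptor subunit for ciliary neurotrophic factor, was at 8.35 in all 3.

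Lgals3, galectin-3, a carbohydrate-binding protein of reactive glia and macrophages, had the largest difference of all members. It was at 6.08 in AP control, 6.90 in the array labelled Cav1-shRNA and 7.43 in cavtratin. AP control was the low array, with cavtratin 2.55-fold and Cav1-shRNA 1.77-fold above it, and Cav1-shRNA lay 0.53 below cavtratin. Since AP control lay below the floor, these folds can be too small. Of genes at or above the floor, 0.976% and 0.542% lay at least as far above AP control.

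Summed levels of myeloid markers, though not each marker, had the same order of arrays as Lgals3. The summed linear level of 17 microglia and macrophage markers was 3087 in AP control, 5012 in the array labelled Cav1-shRNA and 6023 in cavtratin, with 13, 15 and 15 at or above the floor. None was at 0, and the lowest, Tmem119, was at 5.89 in all 3. Past 2-fold above AP control lay 6 of 17 in cavtratin and 3 in Cav1-shRNA, with 15 at or above the floor in each comparison. Of all genes at or above the floor, 1.36% and 0.341% lay so. The median difference of the 17 markers from AP control was 0.31 in cavtratin and 0.57 in Cav1-shRNA, so the median had another order than the sum. Between these 2 arrays 8 markers were higher in Cav1-shRNA (Cx3cr1, Aif1, C1qa, C1qb, C1qc, Ctss, Trem2 and Adgre1) and 7 in cavtratin (Csf1r, Cd68, Itgam, Ptprc, Mpeg1, Fcer1g and Tyrobp). Of 15 neutrophil and monocyte markers 5, 6 and 9 reached the floor in AP control, the array labelled Cav1-shRNA and cavtratin, with the lowest at 3.59, and summed levels were 1400.4, 2254 and 3315. Past 2-fold above AP control lay 6 in cavtratin, among 10 at the floor in either array, and 2 in Cav1-shRNA, among 6. The shares of all genes were again 1.36% and 0.341%. Cavtratin was the highest array for 10 markers and Cav1-shRNA for Ly6c2 and Lyz2, with 3 tied. Ly6c2 was at 6.59, 8.08 and 6.16 in AP control, the array labelled Cav1-shRNA and cavtratin. Cebpb is made by myeloid cells too, and their part in the values of Lgals3, Cebpb and Vim was not tested.

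The tissue label was checked against markers. All 13 measured photoreceptor markers reached the floor in all 3 arrays, with differences from AP control between −0.19 and 0 in cavtratin and between −0.22 and 0.063 in Cav1-shRNA. All 14 measured homeostatic members reached it in all 3 as well. A further list of 28 genes enriched in Muller glia, not among the members, had 24 measured, 22 of them at or above the floor in each array. In all 3 comparisons 0 of the 22 were 1.5-fold apart, where 2.34% of all genes were between some pair of arrays. Against AP control the median of the 24 was 0.0030 in cavtratin and 0.0025 in Cav1-shRNA. The largest differences were those of Cd9, a tetraspanin, at 8.45, 8.64 and 8.97 in AP control, the array labelled Cav1-shRNA and cavtratin, and of Crym, mu-crystallin, a thyroid hormone-binding protein, at 10.07, 10.35 and 10.56.

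The cytokine route to gliosis was read from 16 measured genes of gp130 signalling. Against AP control 2 were at least 2-fold higher and 2 lower in cavtratin, among 15 that reached the floor in either array. In the array labelled Cav1-shRNA 0 were higher and 2 lower, among 14 that did. Over all genes at or above the floor the shares were 1.36% and 0.0958% in cavtratin, and 0.341% and 0.122% in Cav1-shRNA. The ligands Lif and Il6 were the lower ones. Lif had 7.62 in AP control against 6.50, at the floor itself, in each of the others. Il6 had 7.31 in AP control, 4.34 in the array labelled Cav1-shRNA and 4.98 in cavtratin, below the floor outside AP control. The differences of both genes rest on the same AP control array. Osm, the ligand oncostatin M, was at 6.14, 6.32 and 7.14 in AP control, the array labelled Cav1-shRNA and cavtratin. Pim1, a STAT3-induced kinase, was at 7.14, 7.64 and 8.50 in that order, so both were highest in cavtratin. Osm reached the floor in cavtratin alone, and its difference from AP control there only just passed 2-fold. The shared receptor Il6st was at 10.10 in all 3 arrays and Stat3 at 10.69. Socs3, the feedback inhibitor of this route, was at 7.37 in AP control and Cav1-shRNA and at 7.91 in cavtratin, short of 1.5-fold. The median was 0.0047 in cavtratin and 0 in Cav1-shRNA.

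Of 32 other genes of reactive astrocytes and gliosis, 28 reached the floor in each comparison with AP control. In cavtratin 2 were at least 2-fold higher than in AP control and 4 lower, against 1.36% and 0.0958% of all genes. In the array labelled Cav1-shRNA 0 were higher and 2 lower, against 0.341% and 0.122%. Ednrb, an endothelin receptor of reactive glia, was at 7.98, 8.94 and 10.05 in AP control, the array labelled Cav1-shRNA and cavtratin, and Cd14, also a myeloid gene, at 7.09, 7.67 and 9.73. The lower genes in cavtratin were Cxcl10, Ccl2, Plat and Ptx3, and in Cav1-shRNA Cxcl10 and Ccl2. Ccl2, a chemokine that Muller glia can release, was at 10.58, 7.46 and 8.04, and Cxcl10, an interferon-induced chemokine, at 10.32, 6.42 and 7.03, so AP control was the high array for both. Plat, tissue plasminogen activator, was at 8.74, 8.09 and 7.69, and Ptx3, a soluble pentraxin, at 6.57, 5.77 and 5.56. Ptx3 reached the floor in AP control alone, and Cxcl10 lay below it in Cav1-shRNA. Plaur, the urokinase receptor, was 1.11 lower in Cav1-shRNA than in cavtratin, with 7.03, 6.61 and 7.71. List medians against AP control were 0.054 in cavtratin and 0 in Cav1-shRNA, and this list shares genes such as Stat3, Socs3 and Osmr with the gp130 list.

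Developmental routes that Muller glia use were read from 4 further lists. In the Notch list 0 of 14 measured genes, in the FGF list 0 of 13 and in the list of YAP targets, which holds Cyr61 too, 0 of 12 were 1.5-fold apart in any comparison, where 2.34% of all genes were apart by that much between some pair. In these lists 11, 10 and 9 genes reached the floor in at least 1 array. Medians against AP control were 0 in all 3 lists, and single genes differed by less than 1.5-fold. Notch2, a Notch receptor, was 0.56 higher in cavtratin than in AP control and 0.25 higher in Cav1-shRNA. Ccnd1, the cell-cycle protein cyclin D1, was higher by 0.50 and 0.33 in the same arrays. Etv5, a transcription factor that FGF signalling induces, was higher by 0.087 and 0.35. In the BMP list, where 14 of 20 genes reached the floor in at least 1 array, 1 passed 2-fold. Between some pair of arrays 1.31% of all genes were 2-fold apart. The BMP gene was Grem1, a secreted BMP antagonist, at 7.49 in AP control, 6.18 in the array labelled Cav1-shRNA and 7.79 in cavtratin. Cav1-shRNA was the low array there, by 1.31 and 1.61 and below the floor, while Id3 was lowest in cavtratin. Id2, of the same family as Id3, differed from AP control by −0.39 in cavtratin and by −0.52 in Cav1-shRNA.

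**Figure D3:**
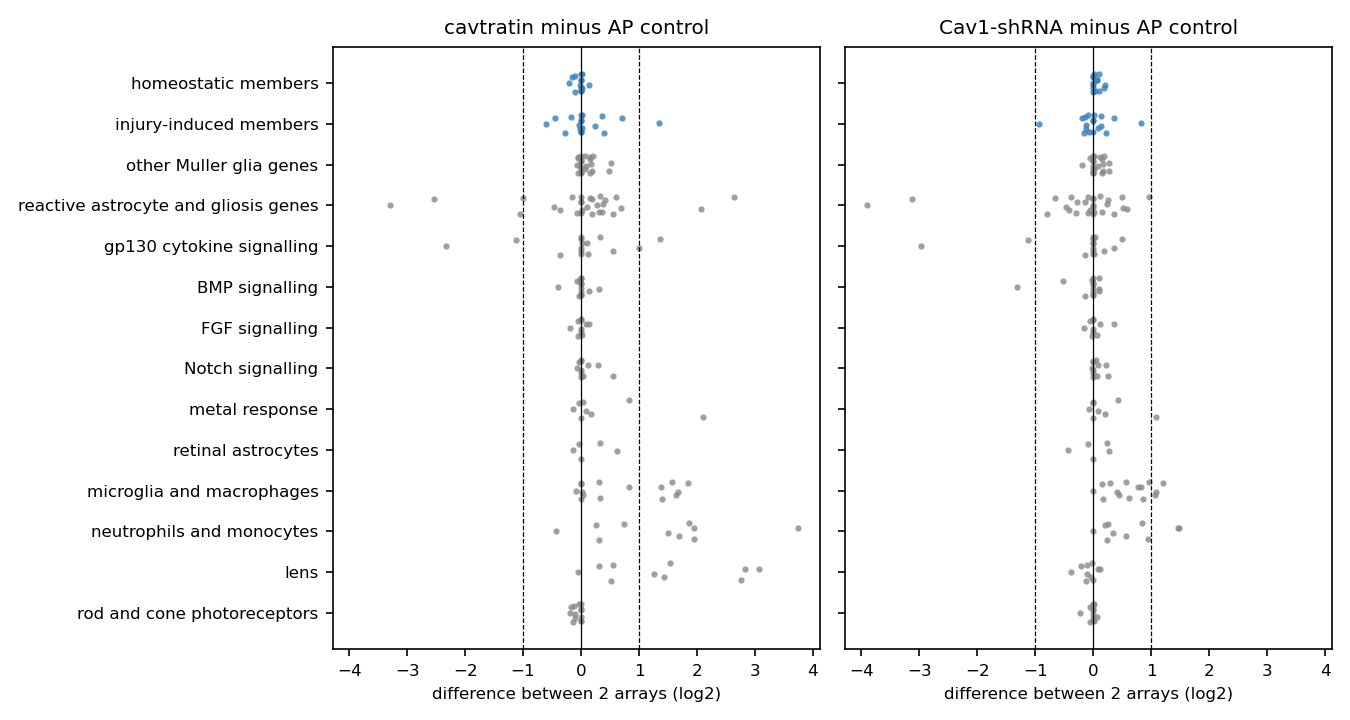
Each point is 1 gene at or above the floor in at least 1 array, placed by its log2 difference from AP control in cavtratin (left) and Cav1-shRNA (right), with members in blue and other lists in grey. Dashed lines mark 2-fold. The homeostatic members and the other Muller glia genes lie within 0.52 of 0. Genes of the reactive astrocyte, gp130, metal response and both myeloid lists reach past 2-fold in both panels. In cavtratin the lens list and Lgals3 do so as well, and in Cav1-shRNA the BMP list does.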

How the data were processed

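Gene expression was measured on 3 Affymetrix whole-transcript arrays, 1 per group. Per the labels' protocols, RNA was extracted with TRIZOL and hybridised as biotin-labelled cDNA. The deposited values were read as log2 levels from their range of 1.88 to 13.42, while summarisation, normalization and log base were not given in the sources used here. Array medians were 6.07, 6.01 and 6.06 in AP control, the array labelled Cav1-shRNA and cavtratin. Of 41345 probe sets, 23521 had 1 gene symbol in GEO's platform annotation, which can be old, 1814 had several and 16010 none. Entrez identifiers matched 23328 of them to RefSeq (GRCm38.p6). Values within 1e-09 were called equal, and a gene entered a comparison when the higher array reached the floor. The number of arrays limits the precision. Summed linear levels are sums of 2 to the power of the deposited value. Named in full were members 1.5-fold apart between any 2 arrays, Glul, Rlbp1, Vim, Gfap and the homeostatic member with the largest difference. List genes 2-fold apart were named too, but those of the lens and both myeloid lists were given only in part. Other values shown were chosen after they were seen. The members and lists were chosen with earlier results of these data known. Alternatives were centring, quantile normalization, subtraction of a loess trend (span 0.3), the mean of all probe sets, other floors and other fold thresholds. Counting was tested on simulated data. Python 3.11.15, numpy 2.4.6 and pandas 2.3.3 were used.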

Additional observations from a re-analysis of the deposited data

How the results depend on the processing

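The counts of members 2-fold apart kept their values under centring, quantile normalization, the loess trend and the mean of all probe sets. In cavtratin against AP control the count of higher members was 1, Lgals3, and became 0 with the floor at the 75th percentile and 0 at 3-fold, while at 1.5-fold it was 2. At 1.5-fold the count of lower members there was 1 in place of 0. In Cav1-shRNA against AP control, 1.5-fold gave 1 higher and 1 lower member in place of 0 and 0. Group medians moved by less than the probe set SD under all scalings and with the mean in place of the median. Counts above and below 0 were less stable, because tied members take on a shift. In cavtratin against AP control, homeostatic counts went from 3 and 6 to 9 and 5 after centring, and to 3 and 10 after quantile normalization. Injury-induced counts there went from 7 and 6 to 12 and 6, and to 6 and 12. In Cav1-shRNA against AP control, homeostatic counts went from 8 and 1 to 14 and 0 after centring. Of differences that were not 0, the sign changed under at least 1 scaling for Cp and Glul in cavtratin against AP control, for Car2 in Cav1-shRNA against AP control and for Cp, Gfap and Sox2 in Cav1-shRNA against cavtratin, the largest of them 0.040 in size. No paired analysis was possible because each group has 1 array, and leaving out a replicate could not be run for the same reason. Signal over background is not in the values used here, so levels near the floor or below it, as for Lgals3, Id3, Lif, Il6 and Osm, are the least certain.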
